A study of Mus musculus with 9 samples.

Results

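The genes described here are 34 mouse genes of fatty acid synthesis, triglyceride assembly, lipid droplets and lipolysis, taken by symbol from a fixed list, and all 34 were found among the 21878 symbols of the count table. The study measured mRNA by RNA sequencing in C57BL/6 hepatocytes that had been reprogrammed to liver progenitors with HGF, EGF and small molecules, transduced with a lentivirus, and then redifferentiated over 3 weeks with OSM, DAPT and SB431542. Its 9 samples comprise 3 groups: KO-ATP7B (ATP7B-/- cells given ATP7B), KO-GFP (ATP7B-/- cells given GFP) and WT-GFP (wild-type cells given GFP). Every group had been exposed to CuCl2 for 24 hours, at 100 µM per the protocols, although another field of the labels has mM. Cells without copper were not analysed here.

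Values below come from WT-GFP replicates 1 and 2, the only count columns whose number is carried by a file of a single sample. The other 7 of the 9 numbered columns could be assigned to a sample only by their order, which was not done, so no genotype or vector is compared. The growth protocol calls the wild-type cells WT-ATP7B-Heps, while titles and design text say GFP. Nothing in the labels ties the replicates to separate mice or separate cultures. Every p-value therefore measures a difference between these libraries, which may be technical. Replicate 1 held 18532457 counts and replicate 2 held 17821682, and over 12302 genes averaging 10 or more counts the chi-square was 5.25 times its degrees of freedom. They differed by more than sampling noise, so they are not the same counts deposited more than once, and they are given as the labels' separate samples.

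The liver makes fatty acids from citrate-derived acetyl-CoA, which is carboxylated to malonyl-CoA, built into palmitate, then elongated and desaturated. Fatty acids are esterified to glycerol to form triglyceride, which is stored in droplets coated with perilipins and CIDE proteins and released again by lipases. In mature hepatocytes the transcription factors SREBP-1c and ChREBP raise the synthetic genes after feeding, and altered hepatic lipid metabolism is known in Wilson disease, where the copper ATPase gene Atp7b is defective.

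Most of the fatty acid synthesis branch was expressed, whereas part of the droplet and lipolysis genes, and most of the listed regulators, were low. Levels are the deposited FPKM (counts scaled to gene length and library total), given as mean ± SD over n = 2 libraries. A mean of at least 10 FPKM was reached by 21 of the 34 members (61.8%), against 27.1% of all symbols, and 6 members lay below 1 FPKM. As TPM, 24 members reached 10 and 3 lay below 1. The median member stood at 16.8 FPKM, and the median symbol at 0.782 FPKM, a figure that includes 6333 symbols with no count. Of the 13 genes of acetyl-CoA and NADPH supply, palmitate synthesis, elongation and desaturation, 12 reached 10 FPKM, or 10 with GENCODE exon lengths. Values with GENCODE lengths divide the deposited counts by lengths of another gene model, so they show only the dependence on length. Of the 11 droplet coat and lipolysis genes, 4 reached 10 FPKM. These 4, and the 21 above, include Cideb, whose counts may hold reads of Nop9, a gene on the other strand.

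**Figure D1:**
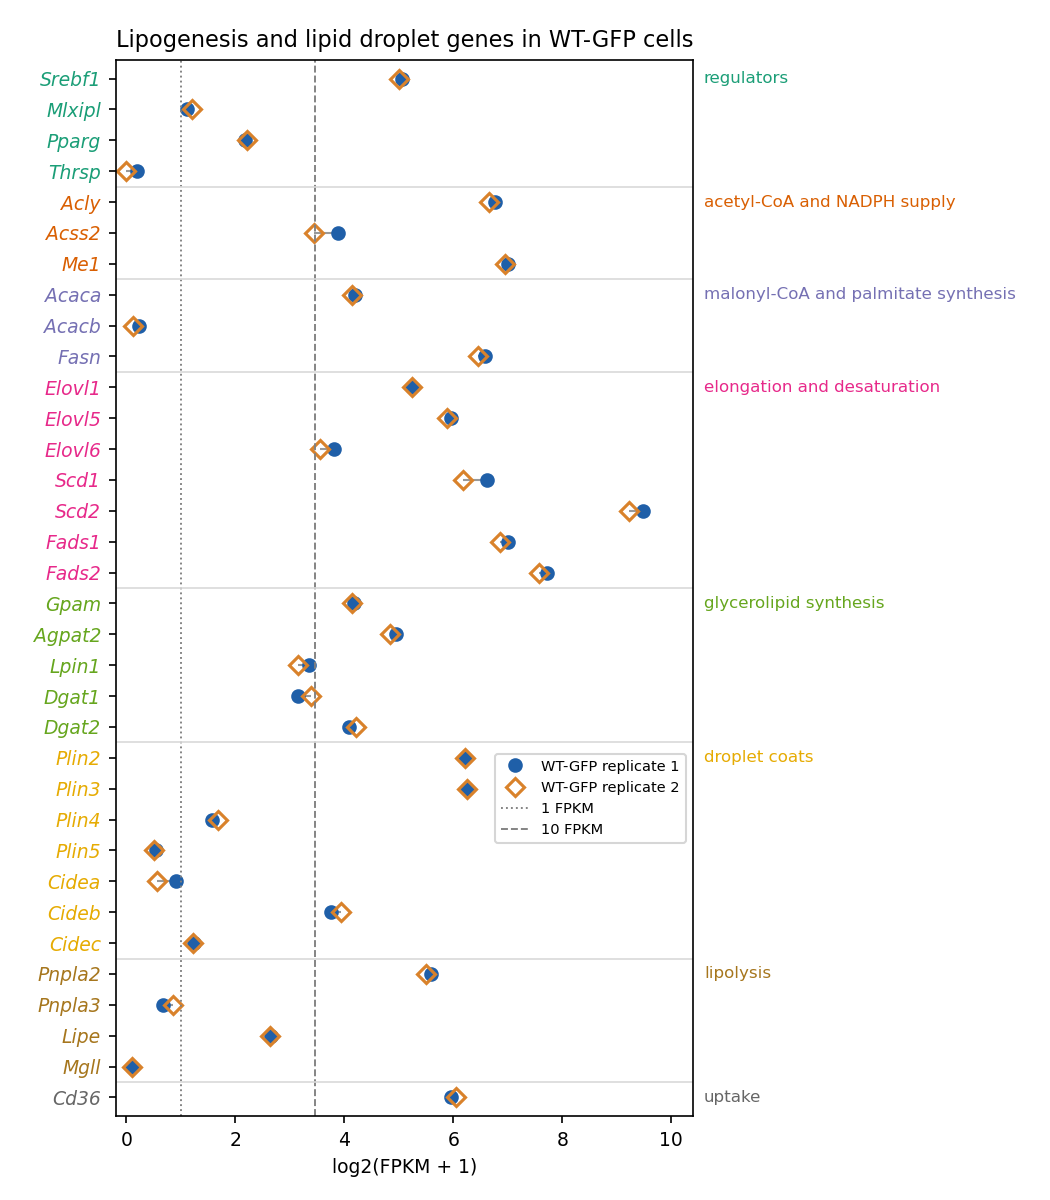
Levels of the 34 members as log2(FPKM + 1), with a filled circle for WT-GFP replicate 1 and an open diamond for replicate 2, grouped by role. Dotted and dashed lines mark 1 and 10 FPKM. Scd2 lies farthest right, and Thrsp, Mgll and Acacb lie near 0 in both libraries.

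Cell type markers were checked first, since droplet genes are also expressed by fat cells, stellate cells and macrophages. All 8 hepatocyte markers reached 10 FPKM, among them albumin (Alb) at 929.6 ± 33.4 FPKM (Atp7b, intact in these cells, was at 7.06 ± 0.911 FPKM), with summed levels of 3152 and 2910 FPKM in replicates 1 and 2. None of 8 adipocyte markers did, a list that includes the member Cidea. Their sums were 2.86 and 2.59 FPKM, and Plin1, Lep and Cfd had no count. The 8 stellate markers summed to 1.43 and 1.46 FPKM with Pdgfrb at 0 counts. Most of these sums came from Reln, with 212 and 255 counts (0.978 and 1.22 FPKM). The 8 endothelial markers summed to 1.46 and 1.65 FPKM with Stab2, Cdh5, Lyve1 and Clec4g at 0 counts. Of 8 macrophage markers 5 had no count (Adgre1, Clec4f, Marco, Vsig4, C1qa), while Cd68 was at 17.1 ± 3.34 FPKM, and the sums were 16.7 and 21.8 FPKM. Part of the biliary markers were present beside the hepatocyte ones, with 5 of 8 at 10 FPKM or more and sums of 1016 and 1001 FPKM. Most of these sums came from Spp1 (604 ± 27.9 FPKM) and Krt19 (344 ± 36.5 FPKM). Epcam was at 2.04 ± 0.887 FPKM, and Cftr and Cldn7 had no count. A count of 0 allows up to 3 counts, or 0.162 CPM in replicate 1 and 0.168 CPM in replicate 2, for counting error only.

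Among the regulators, Srebf1 was the single member at 10 FPKM or more. Srebf1, which encodes SREBP-1, the main activator of the synthetic genes, was at 32.5 FPKM in replicate 1 and 31.1 FPKM in replicate 2 (31.8 ± 0.933). Pparg, the nuclear receptor of fat cell formation, stood at 3.54 and 3.62 FPKM. Mlxipl, which encodes the glucose-sensing factor ChREBP, was at 1.15 and 1.30 FPKM, from 86 and 93 counts. These libraries thus ordered the regulators alike, with Srebf1 far above Pparg and Pparg above Mlxipl. Thrsp, a small lipogenic protein gene that responds to thyroid hormone, had 3 counts in replicate 1 and 0 in replicate 2, at the limit of detection.

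Of the enzymes that feed and carry out palmitate synthesis, Me1, Acly and Fasn were high, Acss2 and Acaca intermediate and Acacb low. Me1, the malic enzyme that supplies NADPH, was at 127 and 122 FPKM in replicates 1 and 2, and Acly, which splits citrate into acetyl-CoA, at 108.0 and 99.6 FPKM. Fasn, the fatty acid synthase, stood at 95.3 and 86.3 FPKM. These 3 genes ranked between 504 and 720 by mean FPKM among all symbols, and each was lower in replicate 2. Acss2, which activates acetate, was near the 10 FPKM mark, at 13.7 and 9.85 FPKM, and its mean of 11.8 FPKM became 3.69 FPKM with the GENCODE exon length. Acaca, the cytosolic carboxylase that makes malonyl-CoA for synthesis, was at 17.2 and 16.6 FPKM. Acacb, the mitochondrial carboxylase that restrains fatty acid oxidation, had 31 and 15 counts, or 0.177 and 0.0889 FPKM. Per length Acaca exceeded Acacb in each library, by 97.6 and 186 times, a ratio made imprecise by the few Acacb reads. With GENCODE exon lengths the ratios were 57.6 and 110, since Acaca itself came to 9.80 FPKM.

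The highest member was Scd2, with the deposited and with GENCODE lengths. Scd2 (chromosome 19, 44293674 to 44306864, plus strand, GRCm38), a stearoyl-CoA desaturase that places the first double bond, had 711 FPKM in replicate 1 and 594 FPKM in replicate 2 (653 ± 82.6), rank 62 of all symbols. Its 71867 and 57761 counts were 43.7% and 41.3% of all member counts. Scd1 (chromosome 19, 44394455 to 44407879, minus strand), known as the main desaturase of adult liver, lies 87.6 kb from Scd2 and was at 96.9 and 71.8 FPKM. Scd2 therefore stood above Scd1 in both libraries, by 7.34 and 8.28 times per length. The next desaturases, Fads2 (delta-6) and Fads1 (delta-5), which lie on chromosome 19 in opposite orientation with 81.1 kb between them, act on polyunsaturated fatty acids. Fads2 was at 209 and 189 FPKM, and Fads1 at 127 and 115 FPKM. Their ratio was 1.64 in each library, but the order rests on gene length, since with GENCODE exon lengths it was 1.02.

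Elongases formed a graded set, each above 10 FPKM in both libraries. Elovl5, which extends polyunsaturated chains, was at 60.8 and 57.9 FPKM. Elovl1, which makes very long saturated chains, was at 36.8 FPKM in both. Elovl6, which turns palmitate into stearate and so makes the substrate of the Scd enzymes, was lowest at 12.9 and 10.8 FPKM. Elovl5 exceeded Elovl6 by 4.70 and 5.35 times and Elovl1 exceeded it by 2.84 and 3.41 times, so the order was the same in each library.

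Triglyceride assembly was expressed at intermediate levels. Agpat2, which adds the second acyl chain, was at 30.1 and 27.6 FPKM, and Gpam, the mitochondrial enzyme that adds the first, at 17.1 and 16.6 FPKM. Dgat2 and Dgat1, unrelated enzymes that both add the last acyl chain, were at 15.99 and 17.52 FPKM and at 7.89 and 9.46 FPKM. Dgat1 thus had 0.493 and 0.540 of the Dgat2 level per length. Lpin1, a phosphatidate phosphatase that also acts with transcription factors, was at 9.18 and 7.83 FPKM. No gene of this step lay below 1 FPKM.

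Droplet coats split into a high pair and a low remainder. Plin2 (chromosome 4, 86648386 to 86670060, minus strand), the coat protein of liver droplets, was at 73.6 and 73.2 FPKM, and Plin3, a coat of nascent droplets, at 75.6 and 75.1 FPKM. Their ratio was 0.975 in both libraries, or 1.55 with GENCODE exon lengths, so which of them was higher cannot be said. Plin4 was at 1.95 and 2.19 FPKM, and Plin5, which links droplets to mitochondria, at 0.462 and 0.427 FPKM from 18 and 16 counts. Plin3, Plin4 and Plin5 lie together on chromosome 17, with 1.8 kb between Plin4 and Plin5 and 160 kb between Plin5 and Plin3, and had widely different levels. Plin2 exceeded Plin5 by 159 and 171 times.

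The CIDE genes, whose products enlarge droplets or load lipoproteins, were low or uncertain. Cideb, the hepatocyte form, was at 12.6 and 14.4 FPKM. However, 76.3% of its exon bases are also covered by exons of Nop9 on the other strand, and no source used here gives the strand setting of the counting, so reads of these genes cannot be told apart. Cidec stood at 1.36 and 1.33 FPKM, and Cidea, typical of brown fat, had 19 and 10 counts. Both were therefore low in each library, and Cidea had few counts.

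Lipolysis was represented mainly by Pnpla2. This gene, which encodes adipose triglyceride lipase, the first step of triglyceride breakdown, was at 47.1 and 44.1 FPKM. Lipe (hormone-sensitive lipase) was at 5.32 and 5.22 FPKM, 8.86 and 8.44 times lower. Mgll, the monoglyceride lipase of the last step, had 7 and 6 counts. Pnpla3, a droplet protein linked to fatty liver, had 89 and 116 counts, or 0.593 and 0.804 FPKM, and its mean of 0.699 FPKM became 3.65 FPKM with the GENCODE exon length. Cd36, a fatty acid uptake receptor, was at 61.3 and 65.4 FPKM. Cells of other types also express Cd36. Of the macrophage and endothelial markers, 5 of 8 and 4 of 8 had no count, while Cd68 had 341 and 433 counts, Csf1r 158 and 179, Kdr 44 and 39, and Oit3 41 and 46. Their part in the Cd36 level was not tested.

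**Figure D2:**
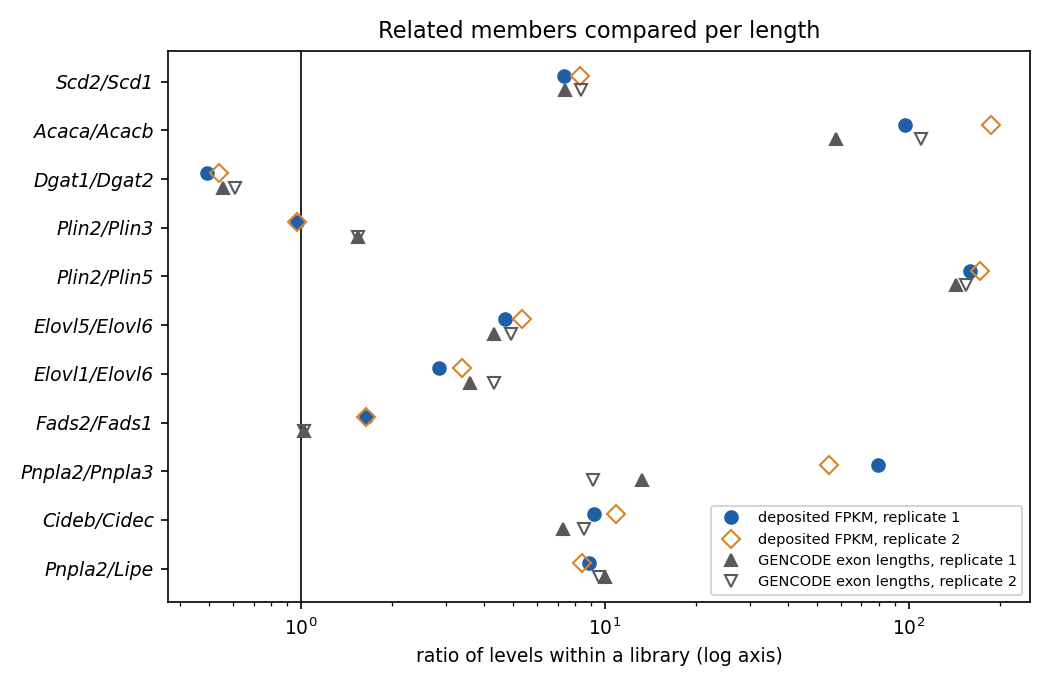
Ratios of levels between related members within each WT-GFP library, on a log axis, from the deposited FPKM (circles and diamonds) and from the same counts with GENCODE exon lengths (triangles). Scd2/Scd1 was 7.34 and 8.28, while Plin2/Plin3 and Fads2/Fads1 moved across or close to 1 with the lengths.

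The libraries were then compared gene by gene. Counts scaled to the library total (CPM) of replicate 2 were set against replicate 1 with a two-sided exact binomial test given the library totals, adjusted over all 12302 genes that averaged 10 or more counts (Benjamini-Hochberg, threshold 0.05). This compares libraries of 1 group, not conditions. Of the 32 members tested, 10 were lower in replicate 2 (31.2%) and 1 was higher. Over all genes tested, 785 (6.38%) were lower and 1031 (8.38%) higher, and with TMM scaling these became 958 and 836. Among the 4409 genes averaging 1000 or more counts, 12.3% were lower. The members' median log2 ratio was -0.06, beside 0.01 for all genes tested. Thrsp and Mgll had too few counts to be tested.

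Of the 10 lower members 9 were genes of fatty acid synthesis, and the other was Lpin1. Of the 13 synthesis genes 9 were lower (69.2%, beside 6.38% of all genes tested and 12.3% of those averaging 1000 or more counts). Calls come more readily at greater depth, and neither share is matched to the depth of these genes. None of the 13 was higher, and their median log2 ratio was -0.14. Acss2 was at 43.7 CPM in replicate 1 and 31.4 CPM in replicate 2, which is -0.48 on the log2 scale (95% exact interval -0.64 to -0.32, adjusted p = 8.14e-08 by the exact binomial test). Scd1 was at 469 and 347 CPM, or -0.43 on the log2 scale (-0.48 to -0.39, adjusted p = 6.51e-71 by the exact binomial test). Ratios as low as that of Scd1 were found in 0.136% of the 4409 deeply counted genes. Elovl6 and Scd2 each stood at -0.26 (adjusted p = 0.000154 and 8.75e-224, exact binomial test), as low as 0.794% and 0.839% of those genes reached. These are low ratios for deeply counted genes only. Over all genes tested 122 higher and 66 lower calls had a log2 ratio of at least 0.5 in size, and no member was among them.

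Smaller gaps were called for some other genes of the synthetic branch, but not for Acaca, Elovl5, Elovl1 and Acacb. The log2 ratios of these uncalled genes were -0.06, -0.07, 0.002 and -0.97, the last from few counts. Fasn, Fads1 and Fads2 each stood at -0.14 (adjusted p = 6.27e-17, 3.15e-08 and 7.6e-06, exact binomial test). Acly was at -0.12 (adjusted p = 6.65e-06, exact binomial test) and Me1 at -0.06 (adjusted p = 0.0481, exact binomial test). These ratios were near the SD of 0.113 over deeply counted genes, except that of Me1, which was smaller in size than this SD. Ratios as low were found in 6.51% of those genes for Fads2 and 24.6% for Me1. Me1 did not pass with every gene that had a count in the test (adjusted p = 0.0597, exact binomial test). Outside synthesis, Lpin1 was lower (log2 ratio -0.23, adjusted p = 0.00557, exact binomial test).

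**Figure D3:**
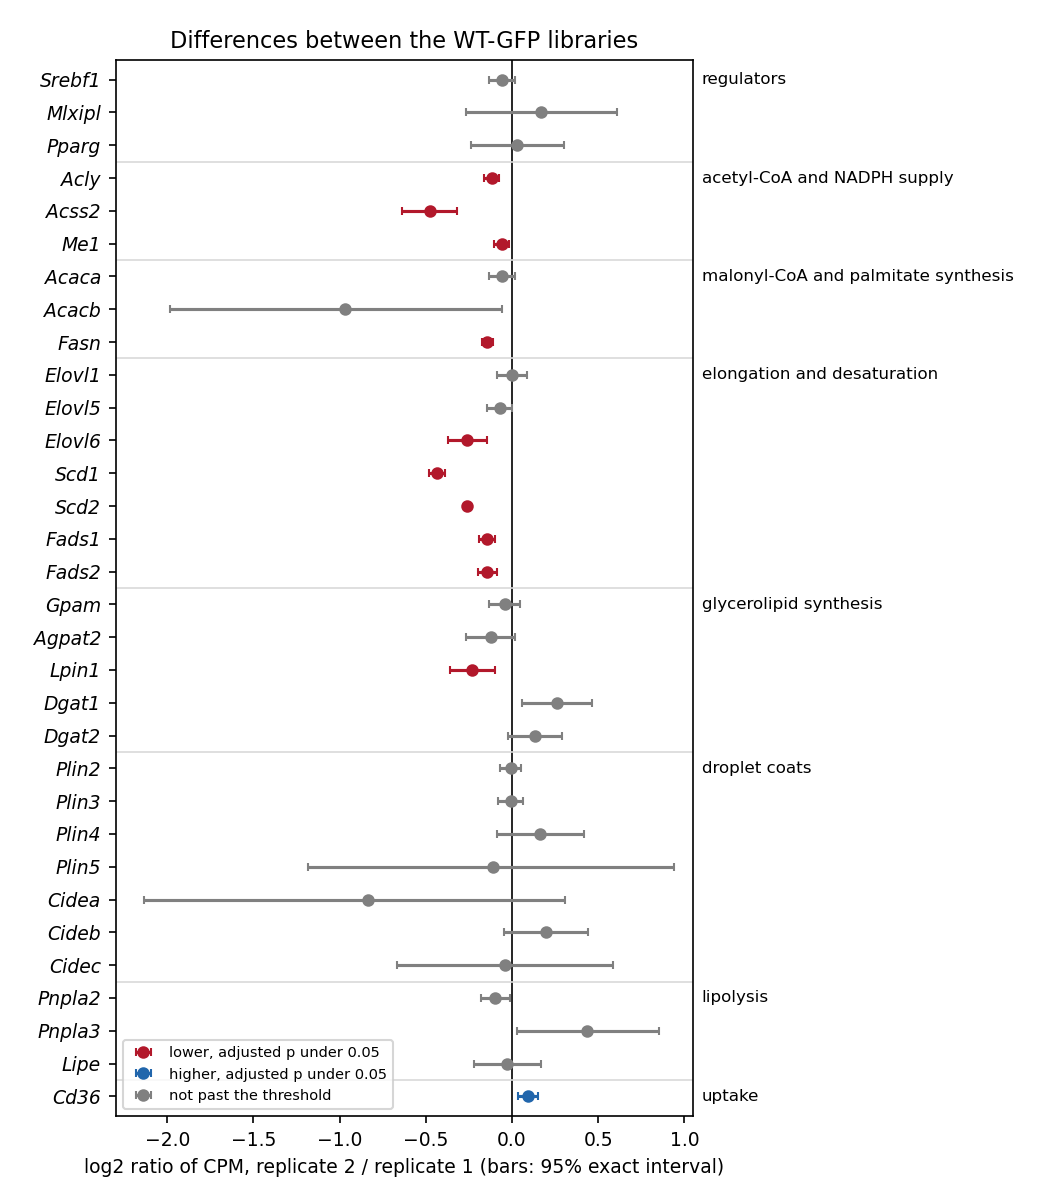
Log2 ratio of CPM, WT-GFP replicate 2 over replicate 1, for the 32 members tested, with 95% exact intervals that cover counting error only. Red marks the 10 members that were lower, blue marks Cd36, and gray marks those not past the threshold.

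Droplet and lipolysis genes gave no call among the 10 tested, with a median log2 ratio of -0.02. With 6.38% of all genes lower and 8.38% higher, a list of this size with no call is near the background, and the difference from the synthesis genes was not tested. For the deeply counted members the interval was narrow. Plin2 had a log2 ratio of -0.01 (-0.07 to 0.05) and Plin3 of -0.01 (-0.08 to 0.07), intervals that do not reach a gap like that of Scd1. They cover counting error only, not the larger spread between these libraries. For Plin5 (-1.18 to 0.94) and Cidea (-2.14 to 0.31) the depth could not show such a gap. Dgat1 was at 0.26 (0.06 to 0.47) and missed the threshold after adjustment (p = 0.0691, exact binomial test). Srebf1, the regulator, was at -0.06 (-0.14 to 0.02, adjusted p = 0.33, exact binomial test). Cd36 was higher by 0.09 on the log2 scale (adjusted p = 0.0177, exact binomial test), a call lost with TMM scaling (adjusted p = 0.0536, exact binomial test).

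Hepatocyte markers differed in the same direction as the synthetic genes. Of the 8 markers 7 were lower in replicate 2 (87.5%, beside 6.38% of all genes tested and 12.3% of the deeply counted ones). None was higher, the median log2 ratio was -0.10, and Hnf4a did not pass. The lowest ratio was that of Serpina1a (-0.37, adjusted p = 0.000203, exact binomial test), from 693 and 514 counts. Among the deeply counted markers small ratios were called. A ratio as low as that of Apob (-0.03) was found in 34.9% of deeply counted genes, and one as low as that of Trf (-0.18) in 2.72%. Of 6 biliary markers tested 2 were lower and 2 higher (33.3% each, beside 6.38% lower and 8.38% higher over all genes tested). Of the 2 macrophage markers tested Cd68 was higher. The part of these shifts in the members' differences was not tested.

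**Figure D4:**
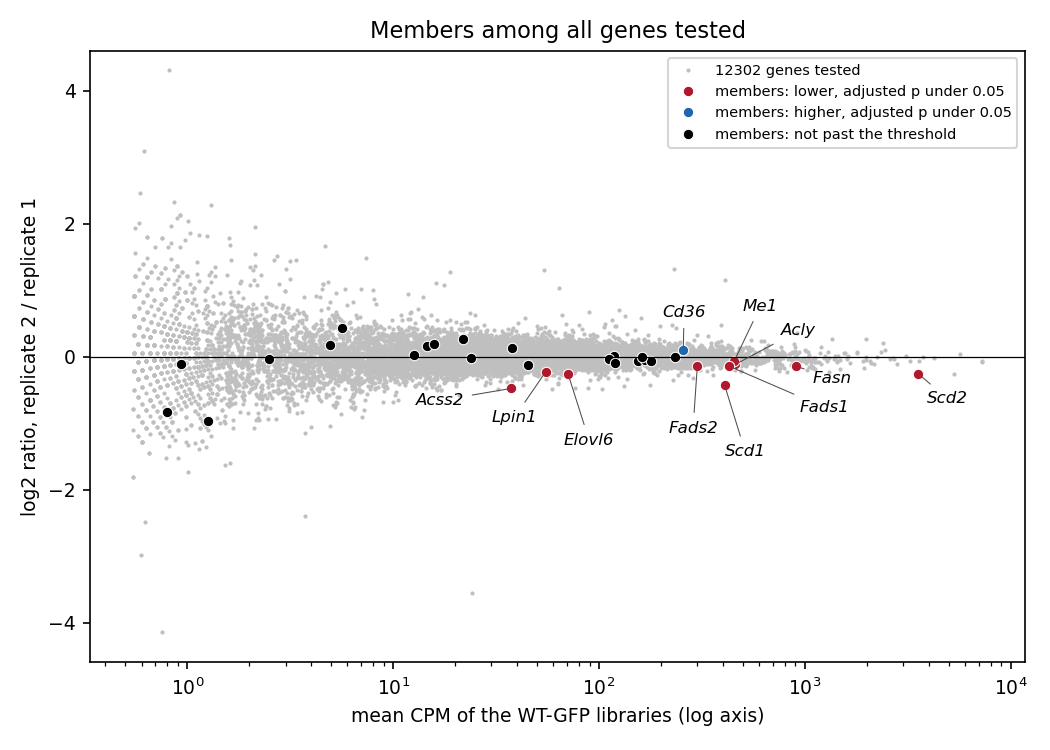
Log2 ratio of replicate 2 to replicate 1 against mean CPM (log axis) for the 12302 genes tested (gray) and the members (colored). Acss2, Scd1, Elovl6 and Scd2 lie at the lower edge of the cloud at their depth.

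Other genes of the pathway, a list of 57 of which 56 were in the table, were expressed to a like extent, with 34 at 10 FPKM or more and 13 below 1 FPKM (median 14.1 FPKM). The highest were Tecr, the last enzyme of the elongation cycle (198 ± 10.7 FPKM), Acsl5, which activates fatty acids (184 ± 9.02 FPKM), and Hsd17b12, another enzyme of the elongation cycle (145 ± 4.02 FPKM). Elovl3, Mogat1 and Plin1 had no count. Of 50 tested, 9 were lower in replicate 2 (18%, beside 6.38% of all genes tested and 12.3% of the deeply counted ones) and 2 were higher (4.0%, beside 8.38% and 14.4%). The lower ones were Insig1, Mid1ip1, Slc25a1, Aacs, Tecr, Acsl5, Lpin2, Hsd17b11 and Slc27a4, with log2 ratios between -0.27 (Mid1ip1) and -0.10 (Acsl5), and the higher ones were Hsd17b13 (0.44) and Rxra (0.14). These genes were named for passing the test, after their values were seen. Mid1ip1 activates acetyl-CoA carboxylase, Slc25a1 exports citrate from mitochondria and Insig1 holds SREBP in the endoplasmic reticulum. Other genes of SREBP control, among them Scap, Srebf2, Insig2, Mbtps1 and Mbtps2, were not called.

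Promoter letters of the members were then described, after the differences between the libraries had been seen. The sequences are the 250 bases before the start site from RefSeq on GRCm38.p6, which held an entry for 28 of the 34 members. The letters searched on both strands were TCACNCCAC (core of the sterol regulatory element, bound by SREBP), CACGTG (the E-box, bound by ChREBP and USF) and CCAAT (bound by NF-Y, a partner of SREBP). The CCAAT letters were found for 17 of 28 members (60.7%) and 37.5% of all 27025 genes. Members have more start sites, and per start site the shares were 19 of 40 (47.5%) and 33.8%. The letters were found for 3 of the 7 lower members with an entry (Acss2, Me1 and Fasn), a share near that of all genes. These lower members were picked by the test on the same data, and no cause of their difference was tested. Scd1, Scd2 and Fads1, which were also lower, had no entry, so the search does not cover them. The E-box letters were found for 4 members (14.3%, against 6.86% of all genes) and the sterol element core for Mlxipl (3.57%, against 1.22%), and neither for any of those 7. Some genes have more than 1 start site in the table, and a gene was counted when any of them held the letters. A match is a description of letters, not of a bound site. Shown 5′ to 3′ are Fasn and Me1, which were lower, Plin2 and Plin3, which were not called, and the Mlxipl start that held the sterol element core, with the matched letters in capitals (ATTGG is CCAAT read on the other strand). Me1 has 2 starts in the table, and the one shown is the downstream start, since the upstream one held none of the letters.
Fasn (chr11:120824548-120824797, minus strand): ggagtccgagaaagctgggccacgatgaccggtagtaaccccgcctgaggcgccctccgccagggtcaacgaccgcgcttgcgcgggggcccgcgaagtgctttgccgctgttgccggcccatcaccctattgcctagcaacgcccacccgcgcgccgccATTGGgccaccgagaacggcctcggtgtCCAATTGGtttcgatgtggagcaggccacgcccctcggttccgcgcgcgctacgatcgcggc
Me1 (chr9:86687278-86687527, minus strand): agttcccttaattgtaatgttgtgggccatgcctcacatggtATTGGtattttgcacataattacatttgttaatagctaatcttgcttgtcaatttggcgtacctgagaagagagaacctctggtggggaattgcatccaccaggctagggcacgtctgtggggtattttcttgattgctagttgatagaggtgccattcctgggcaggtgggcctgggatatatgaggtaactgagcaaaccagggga
Plin2 (chr4:86670060-86670309, minus strand): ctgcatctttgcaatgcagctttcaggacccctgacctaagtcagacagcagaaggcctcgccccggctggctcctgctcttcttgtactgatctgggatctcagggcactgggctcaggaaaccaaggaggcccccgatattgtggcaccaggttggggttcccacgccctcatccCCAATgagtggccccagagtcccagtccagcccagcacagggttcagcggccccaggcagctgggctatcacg
Plin3 (chr17:56290512-56290761, minus strand): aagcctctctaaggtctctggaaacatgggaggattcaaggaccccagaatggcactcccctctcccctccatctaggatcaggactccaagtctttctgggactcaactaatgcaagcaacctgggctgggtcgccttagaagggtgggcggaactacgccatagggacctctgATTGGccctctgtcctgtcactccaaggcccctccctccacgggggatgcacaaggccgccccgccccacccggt
Mlxipl (chr5:135106641-135106890, plus strand): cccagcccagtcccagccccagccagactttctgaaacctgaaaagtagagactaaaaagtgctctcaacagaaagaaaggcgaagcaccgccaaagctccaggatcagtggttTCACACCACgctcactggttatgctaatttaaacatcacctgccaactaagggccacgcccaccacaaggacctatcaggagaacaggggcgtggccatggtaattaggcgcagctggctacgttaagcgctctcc
The Fasn window held CCAAT letters at 3 places, beginning 90, 62 and 59 bases before the start, the last 2 overlapping on opposite strands. Me1 held them once at 208, Plin2 once at 73 and Plin3 once at 75. Acss2 held them once, at 73, on the other strand than in Plin2.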

How the data were processed

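RNA was measured as raw counts per gene symbol, deposited by the authors as 9 numbered columns, of which 7 were not used. For WT-GFP replicates 1 and 2 there are also FPKM, per the file headers. HISAT2 2.2.1.0, mm10 and hg38 are named, with no role, in the submitters' processing notes. No source used here gives the counter, annotation or strand setting. The gene lengths implied by counts and FPKM were whole numbers within 0.01 bp, so FPKM are the same counts over library total and length.

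The comparisons of KO-GFP with WT-GFP, and of KO-ATP7B with either, were planned with edgeR and could not be run. CPM used column totals. Log2 ratios had 0.5 added to each count, and the exact binomial test (scipy) was checked on simulated counts with sampling noise only. That check does not cover the larger spread between these libraries. Intervals are exact Clopper-Pearson at 95%, for counting error only, since reads that carry no molecular identifier can repeat 1 molecule. TMM factors came from edgeR 4.0.16 and size factors from DESeq2 1.42.0. Positions and exon lengths come from GENCODE M21 on GRCm38, the assembly of mm10, where all 34 members matched. Alternatives were other scaling, count minimums of 0 and 100, a log2 ratio of 0.5, TPM, GENCODE lengths and single libraries. All members were named, other pathway genes if among the 3 highest or without counts, with Alb and Atp7b as reference levels, except those named after their values were seen. Members and lists were chosen with earlier results of these data known.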

Additional observations from a re-analysis of the deposited data

How the results depend on the processing

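No paired analysis was possible because both libraries with a known sample belong to WT-GFP, and the planned group comparisons with their alternatives (DESeq2 tests, no filter, replicate number as a term, leaving out libraries) were not run. From 1 library alone, members at 10 FPKM or more numbered 20 to 21 and those below 1 FPKM 6. As TPM, 3 members were below 1 and 24 at 10 or more. The 10 lower members were also 10 with TMM scaling, with DESeq2 size factors and with a minimum of 100 counts, 9 with no filter, and 0 where a log2 ratio of 0.5 in size was also asked. The single higher member became 0 with TMM scaling, with DESeq2 size factors (Cd36, adjusted p = 0.066, exact binomial test) and with the log2 ratio of 0.5. Elovl1, not called, turned from 0.002 to -0.012 with TMM scaling and -0.015 with DESeq2 size factors. With GENCODE exon lengths, 19 members reached 10 FPKM, and the mean ratios became 0.581 for Dgat1/Dgat2, 1.55 for Plin2/Plin3, 149 for Plin2/Plin5, 83.8 for Acaca/Acacb (142 as deposited), 3.97 for Elovl1/Elovl6, 1.02 for Fads2/Fads1, 11.2 for Pnpla2/Pnpla3 (67.1 as deposited), 7.92 for Cideb/Cidec and 9.82 for Pnpla2/Lipe. Depth limits Thrsp, Mgll, Acacb, Plin5 and Cidea, each with at most 31 counts in a library.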

Other observations

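Gene lengths behind the deposited FPKM departed from the GENCODE exon union by more than 1.5 times for 6 members. The length was 3184 bp for Acss2 against 10163 bp, 1508 bp for Fads2 against 3295 bp, and 8093 bp for Pnpla3 against 1548 bp. The levels changed accordingly, from 11.8 to 3.69 FPKM for Acss2 and from 199 to 91.1 FPKM for Fads2, while that of Scd2 stayed at 653 and 651 FPKM. The reads were not counted again on the GENCODE exons, so the changed values are not levels measured on them. Within-gene ratios between libraries do not depend on the length.

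Some members share sequence with other genes. Of the 50-base windows of Acaca transcripts in GENCODE, 30.4% also occurred in transcripts of another gene, chiefly Gm5182, and of Me1 22.9%, chiefly Gm7049. For Scd1 and Scd2 the share was 4.56% and 3.97%, chiefly with Scd3, which was itself at 31 and 18 counts. No source used here says how reads that fit more than 1 gene were counted, so the levels of Acaca and Me1 are uncertain.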
